A study of Strophostyles helvola with 12 samples.

Results

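In roots of sand bean (Strophostyles helvola), 257 of 27191 counted genes had lower transcript levels after NaCl, by similar factors in both genotypes. The dose was 400 mM in the Beach genotype and 200 mM in the Inland genotype. The members were chosen by the measured values themselves, on group means of normalised counts (CPM, the count of a gene scaled to a common library total), each raised by 0.5. A member was at least 2-fold lower in treatment than in control in both genotypes, and its 2 folds lay within 1.5 times of each other. The largest of its 4 group means was at least 5, their average was under 800, and the means of the control groups lay within 8-fold of each other. Of the 378 genes that met all limits except the one on equal folds, the 257 members made up 68.0%, while 96 fell over 1.5 times more in Beach and 25 over 1.5 times more in Inland.

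The study compared 4 groups of 3 libraries each. Beach treatment (400 mM NaCl) was set against Beach control (water), and Inland treatment (200 mM NaCl) against Inland control (water). All plants were seedlings 10 d old when supplied with NaCl or water, and they received 50 mL of solution or water per day. Each library pooled whole roots taken at 3 h, 24 h and 7 d, 1 plant per time. The study counts these times from when the designed NaCl concentration was reached. A value averages over an earlier and a later response. The Beach plants came from coastal sand in North Carolina and the Inland plants from Missouri, 1 genotype each. The study describes Beach as salt-tolerant and Inland as salt-sensitive. It set each dose below the median lethal dose found for that genotype, which was higher in Beach. Between the treated groups, and between the salt responses, genotype and dose cannot be told apart, whereas both control groups received water. The reference for alignment was common bean, which is another species, and a gene that differs more from common bean in 1 genotype would lose reads there, which was not tested. In whole roots, fewer cells of a type and less RNA per cell cannot be told apart either.

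As background, salt reaches a root first as a water deficit and later as an excess of sodium and chloride ions. Roots of many plants then slow their growth, and transcripts that serve cell expansion, water channels and nutrient uptake commonly decline while protective transcripts accumulate. The identifiers in the count table belong to the common bean annotation, and the files do not pair them with names or products. No function is assigned to any member here, and members are described by level, fold, genotype and place in the numbering.

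Libraries held 29205979 to 41330498 counts. One library stood apart among the members. In Beach control replicate 1, 33 of the 257 members were more than 2-fold away from both other replicates of the group, 29 of them below. The number was at most 10 in any of the other 11 libraries. The share of all genes that lay so far away was not computed. The study lists a lower GC content for Beach control replicate 1 than for any other library. It also lists a lower share of uniquely mapped reads than in the other 2 Beach controls, though a Beach treatment library was lower still. The part of these in the deviation was not tested. Over the members, Beach control replicate 1 lay at a median of -0.26 on the log2 scale relative to the other 2 Beach controls, and over all genes with a group mean of at least 5 it lay at 0.04. The median SD between replicates of log2(CPM + 0.5) was 0.20 in Beach treatment, 0.31 in Beach control, 0.22 in Inland treatment and 0.22 in Inland control. The main counts and medians that rest on Beach control are also given without its replicate 1. The study lists lower RNA integrity for every Beach treatment library than for any Beach control library, whereas the Inland groups overlapped. Its part in the results was not tested.

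Most members were moderately expressed transcripts. Their mean level had a median of 7.91 CPM in Beach treatment, against 25.4 CPM in Beach control, and a median of 10.8 CPM in Inland treatment, against 34.0 CPM in Inland control. The range over members was wide, from 0.0971 to 392 CPM in Beach treatment and 1.44 to 808 CPM in Beach control, and from 0.122 to 472 CPM in Inland treatment and 1.58 to 1408 CPM in Inland control. Together the members took 0.558 ± 0.0531% of all counts in Beach treatment, against 1.68 ± 0.184% in Beach control, and 0.731 ± 0.0478% in Inland treatment, against 2.19 ± 0.168% in Inland control (SD, n = 3 each). At least 10 counts were present in every library for 249 members, and no member had 0 counts in any library.

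**Figure D1:**
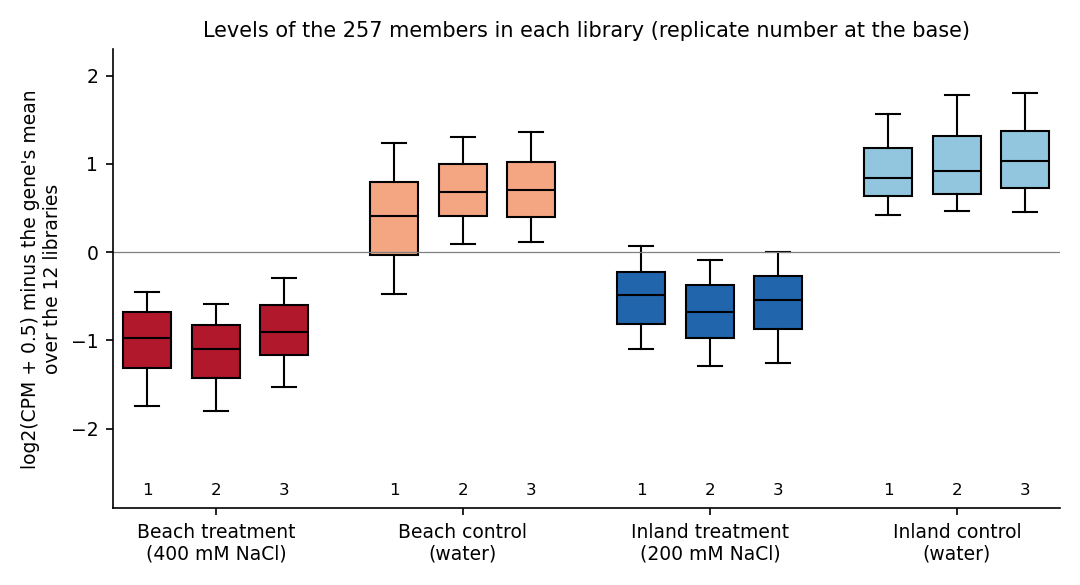
Level of the 257 members in each of the 12 libraries, as log2(CPM + 0.5) minus the gene's own mean over the 12 libraries. Boxes give the median and quartiles over members and whiskers the central 80% of them. The medians lie between -1.102 and -0.898 in Beach treatment and 0.41 and 0.70 in Beach control, and between -0.67 and -0.48 in Inland treatment and 0.84 and 1.03 in Inland control, so Inland is the higher genotype on both sides and Beach control replicate 1 the lowest control.

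The folds themselves served to choose the members and are a description. The median member was 2.91-fold lower with NaCl in Beach and 2.78-fold lower in Inland. The middle of the set was narrow, with quartiles of 2.40 and 3.66 in Beach and 2.33 and 3.51 in Inland. Both folds were under 3 for 114 members, at least 3 for 78, at least 4 for 28 and at least 8 for 5. The steepest falls reached 20.9-fold in Beach and 17.8-fold in Inland. The Beach fold was the larger one for 144 members and the Inland fold for 113, with a median ratio of 1.03. Without Beach control replicate 1 the median Beach fold was 3.03 and the median ratio 1.103, and 31 of the 257 members had folds more than 1.5 times apart. The folds of 79 members lay within 1.1 times of each other. Treated libraries all lay below the control libraries for 253 members in Beach and 254 in Inland, and for 250 in both genotypes (253 without Beach control replicate 1). Over the 16909 genes above 5 CPM in at least 3 libraries the shares were 31.8% in Beach and 17.8% in Inland, but the rule used these contrasts, so nothing can be read from the difference.

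**Figure D2:**
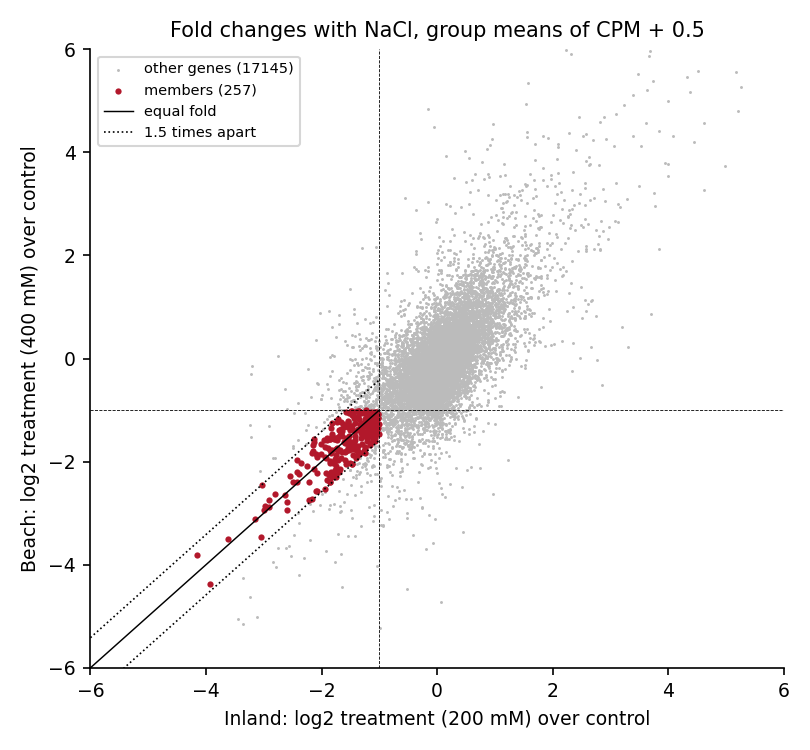
Log2 fold change of treatment over control in Beach (vertical axis, 400 mM) against Inland (horizontal axis, 200 mM), from group means of CPM + 0.5, for 17402 genes with a group mean of at least 5. Dashed lines mark 2-fold lower and dotted lines folds 1.5 times apart, the limits that enclose the 257 members in red, and 11 genes lie beyond the axes.

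Each genotype was also fitted alone with edgeR's quasi-likelihood test, with fold change ≥ 2 and fdr ≤ 0.05 as the limits for a differentially expressed gene (DEG). Of the members, 204 passed the filter of more than 5 CPM in at least 3 libraries in Beach, and 202 of them were DEGs lower with NaCl, where 5.75% of all genes tested were. In Inland 230 passed the filter and 227 were lower, against a background of 4.1%. These members were selected on the same contrasts, and 3 control libraries were enough to pass the filter, so the counts carry no support for the repression. The limits of the rule cut through a continuous range. The smaller of the 2 folds lay between 2 and 2.2 for 60 members, while 97 genes with otherwise fitting values lay between 1.8 and 2. The member nearest to the limit of 2 had means of 21.0 CPM in Beach treatment against 51.6 CPM in Beach control, and of 30.0 CPM in Inland treatment against 60.4 CPM in Inland control. The gene just below that limit had 5.67 CPM in Beach treatment against 11.8 CPM in Beach control, and 6.54 CPM in Inland treatment against 15.2 CPM in Inland control. The member nearest to the upper limit of the fold ratio was 4.13-fold lower in Beach and 2.76-fold lower in Inland, a ratio of 1.497, and the gene just outside had 3.81-fold and 2.52-fold, a ratio of 1.510. At the lower limit the ratio was 0.674 just inside and 0.666 just outside.

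How closely the fit bounded the difference between the responses varied much between members. The difference between the log2 fold changes, Beach minus Inland, was fitted over all 12 libraries, in which 243 members passed the filter. It ranged from -1.295 to 0.823 with a median of 0.02. The 95% interval reached a median of ± 0.71 around the estimate over these members and of ± 0.37 over all 16909 genes tested. Only 29 of the 243 members had an interval that lay wholly within 1.5-fold in either direction, 111 within 2-fold and 211 within 3-fold. The interval held 0 for 236 members, which does not show equality for them. With edgeR's quasi-likelihood test no member passed both limits for a difference in response, against 4.94% of all genes, with DESeq2 none did, and 7 members reached an unadjusted p of 0.05. At fdr ≤ 0.05 without a minimum on fold change 2 members passed, against 13.0% of all genes. For the counts of intervals and of unadjusted p the shares of all genes were not computed, so nothing particular to the members can be read from them. The rule bounds the ratio of the folds of CPM + 0.5, so low counts follow from it. The intervals come from the same libraries after that choice. Their centres are therefore drawn toward 0, and the counts of intervals are a description that does not measure equality. The rule does not bound the fitted difference itself, which went past 1.5-fold in either direction in some members. Without Beach control replicate 1, and likewise without Inland control replicate 2, 1 member passed both limits.

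**Figure D3:**
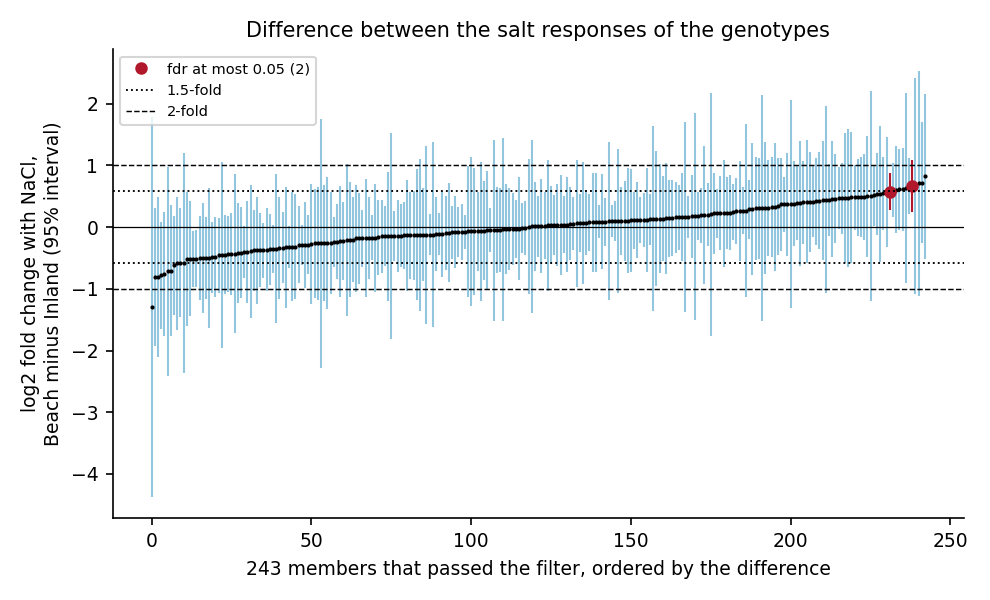
Difference between the salt responses, as the log2 fold change in Beach minus that in Inland, with its 95% interval from the edgeR fit, for the 243 members that passed the filter, ordered by the difference. Dotted lines mark 1.5-fold and dashed lines 2-fold in either direction. Most intervals cross the dotted lines, and the 2 members with an fdr of at most 0.05 are drawn in red.

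The rule placed no direction on the levels of the genotypes in the same condition, only the 8-fold cap in control, and here the members were not centred on equality. In Beach control 195 of the 257 members (75.9%) had a lower mean than in Inland control, against 40.2% of the 17402 genes with a group mean of at least 5. The median log2 ratio of Beach control over Inland control was -0.35 over the members and 0.07 over those genes. In treatment 198 members (77.0%) were lower in Beach, against 55.5% of those genes, with medians of -0.43 and -0.04. The 2 conditions are tied to each other by the limit on equal folds, so the treated libraries add little that is independent. The members lower in Beach in both conditions numbered 184, and those higher in both 48. The most common order of means, held by 170 members, was Beach treatment below Inland treatment, then Beach control, with Inland control highest. The next, held by 43 members, had the genotypes exchanged. Without Beach control replicate 1, 174 members were lower and 47 higher in Beach in both conditions, and 162 and 42 had these orders. In 14 members Beach control did not exceed Inland treatment, and in 5 Inland control did not exceed Beach treatment. Without Beach control replicate 1, 186 members were lower in Beach control, with a median of -0.24.

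By edgeR's quasi-likelihood test over all 12 libraries, with fold change ≥ 2 and fdr ≤ 0.05, 46 of the 243 members tested (18.9%) were lower in Beach control than in Inland control, and 3.77% of all genes tested were. Higher levels in Beach control were found for 5 members (2.06%), against 2.58% of all genes. The fitted median was -0.42 over the members and 0.00 over all genes tested, and 195 of the 243 fitted values were below 0. Under treatment 45 members were lower in Beach, where 5.61% of all genes tested were, and 9 were higher, against 4.64%. Beach libraries all lay below Inland libraries in control for 93 of the 257 members (36.2%), against 15.1% of the 16909 genes tested. They all lay above for 26 members (10.1%), against 27.1%. Of these 257 members 243 passed the filter that the 16909 genes passed. With 2 Beach controls in place of 3, leaving out replicate 1, the counts were 104 and 37. Fewer libraries overlap less readily, and the shares of all genes were not computed in that setting. Those 2 counts therefore cannot be set against the shares above. By the edgeR test without that library, 38 members were lower and 5 higher in Beach control. The fitted median was then -0.32 over the members and 0.00 over all genes tested. The shares of all genes passing were not computed for that fit either. At fdr ≤ 0.05 without a minimum on fold change, 78 members were lower and 11 higher in Beach control, against 13.8% and 12% of all genes. In treatment 85 were lower and 14 higher in Beach, against 20% and 17.6%. The control libraries also entered the choice of the members.

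**Figure D4:**
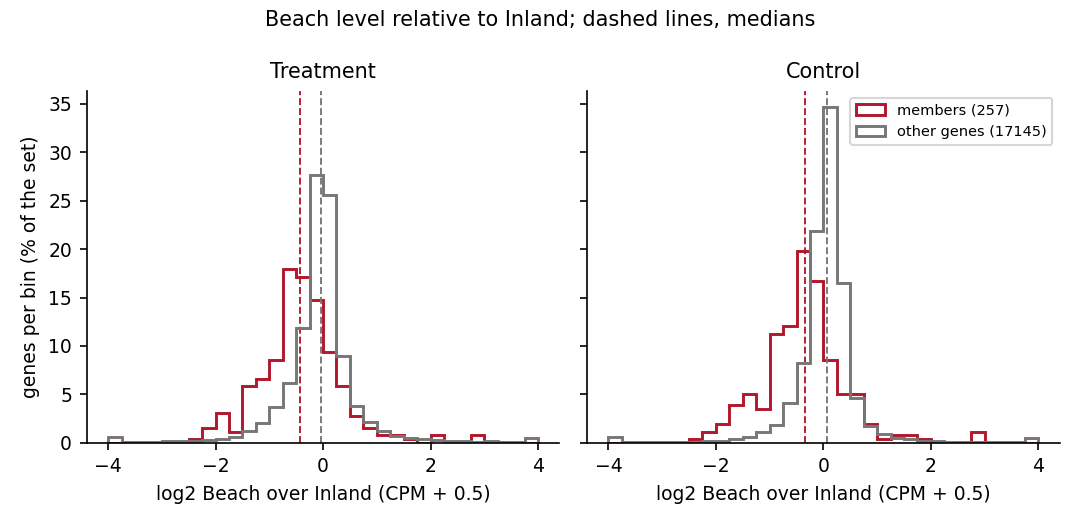
Log2 ratio of the Beach to the Inland level in treatment (left) and control (right), from group means of CPM + 0.5, as the percentage of 257 members (red) and of 17145 other genes (grey) in bins of 0.25. Values beyond 4 in either direction are placed in the end bins. The dashed medians of the members lie at -0.43 in treatment and -0.35 in control, to the left of those of the other genes.

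The 2 members with the highest mean over the 12 libraries show a shallow and a steep fall. Phvul.006G087600 had 399, 361 and 417 CPM in Beach treatment, against 667.8, 877.6 and 879.5 CPM in Beach control. In Inland it had 501, 437 and 478 CPM in treatment, against 979, 1040 and 1015 CPM in control. Treated and control libraries did not overlap in either genotype, and this abundant transcript sat at the shallow end of the set, 2.06-fold lower in Beach and 2.14-fold lower in Inland. Its fitted difference in response was 0.17 with a standard error of 0.16, and its interval of ± 0.35 is among those within 1.5-fold. Its fitted Beach response was -1.02 (standard error 0.14, edgeR fdr = 0.00121), and it came under the 2-fold limit without Beach control replicate 2 (-0.95) or 3 (-0.96) or Beach treatment replicate 2 (-0.98). The log2 ratio of Beach control over Inland control was -0.39 (standard error 0.11, edgeR fdr = 0.0243), under the 2-fold limit.

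Phvul.011G083500 was the second most abundant member and one of the steepest. It had 60.1, 58.5 and 57.5 CPM in Beach treatment, against 85.2, 1178 and 756 CPM in Beach control. The Inland libraries had 171, 80.9 and 91.2 CPM in treatment, against 1376, 1288 and 1561 CPM in control. The treated Beach libraries were nearly identical, whereas Beach control replicate 1 was close to the treated level and far from its 2 partners. The mean folds were 11.4 in Beach and 12.3 in Inland, yet the fitted difference of 0.21 carried an interval of ± 1.97, so that nearly equal means left the equality of this member poorly known. With Beach control replicate 1 omitted, the sign of this difference turned, to -0.32. With each Beach library left out in turn its fitted Beach change ranged from -4.01 to -2.82, and it passed both limits each time.

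Of the 5 members that passed the test as higher in Beach control, the 2 with the largest excess are given in full. Phvul.007G043000 had 8.50, 12.8 and 15.5 CPM in Beach treatment, against 42.6, 34.9 and 21.6 CPM in Beach control. In Inland treatment it had 1.105, 1.075 and 1.379 CPM, against 4.70, 4.38 and 2.16 CPM in Inland control. Treated Beach roots thus still held more of this transcript than unstressed Inland roots in every library, with a fitted log2 ratio of Beach control over Inland control of 3.08 (standard error 0.33, edgeR fdr = 5.75e-05). Its mean ratio of 7.91 lies just under the 8-fold cap of the rule.

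Phvul.003G137700 had 5.80, 7.19 and 10.5 CPM in Beach treatment, against 30.4, 10.4 and 9.31 CPM in Beach control. In Inland treatment it had 0.712, 0.453 and 0.750 CPM, against 2.61, 1.12 and 2.18 CPM in Inland control. The Beach groups overlapped, and the 2.07-fold difference of their means rested on Beach control replicate 1, here the high library. The Beach response did not pass (log2 fold change -1.06, standard error 0.47, edgeR fdr = 0.103), although it did by DESeq2 (adjusted p = 0.036), and without single libraries it ranged from -1.35 to -0.30. The genotypes did not overlap in either condition, and the log2 ratio of Beach control over Inland control was 3.00 (standard error 0.47, edgeR fdr = 0.001075). With Beach control replicate 1 omitted, that ratio was 2.25, still past both limits.

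Among the 40 members that passed as lower in Beach control with at least 10 counts in each control library and no overlap, the 2 with the largest deficit were low transcripts. Phvul.005G163100 had 0.424, 0.856 and 0.631 CPM in Beach treatment, against 2.39, 2.54 and 3.20 CPM in Beach control. In Inland it had 5.11, 4.07 and 4.67 CPM in treatment, against 15.5, 16.0 and 14.9 CPM in control. Every Beach control library was below every treated Inland library. The log2 ratio of Beach control over Inland control was -2.58 (standard error 0.18, edgeR fdr = 1.54e-06), and stayed between -2.72 and -2.49 when any 1 library was omitted.

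Phvul.001G049800 had 0.228, 0.0342 and 0.3604 CPM in Beach treatment, against 1.93, 1.56 and 2.64 CPM in Beach control. The Inland libraries had 2.28, 2.97 and 1.67 CPM in treatment, against 8.95, 13.3 and 12.2 CPM in control. Its lowest library held 1 count, and it did not reach the filter in the Beach fit. Its Beach treatment mean of 0.207 CPM was below the offset of 0.5 CPM, which lowers the Beach fold, here 3.59. The fitted difference in response, Beach minus Inland, was -0.81, a larger fall in Beach (edgeR fdr = 0.391). With each library left out it ranged from -1.47 to -0.35. Beach control overlapped treated Inland. The log2 ratio of Beach control over Inland control was -2.57 (standard error 0.33, edgeR fdr = 0.000282).

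The steepest falls belonged to 2 further members, named after their values were seen. Phvul.009G135300, steepest in Beach, had 0.293, 0.240 and 0.270 CPM in Beach treatment, against 1.89, 33.1 and 11.5 CPM in Beach control. In Inland it had 1.38, 1.47 and 0.532 CPM in treatment, against 28.4, 15.2 and 29.2 CPM in control. The 3 Beach controls differed widely. The Beach fold of 20.9 was 9.37 without replicate 2, below that of the next member described, and 29.7 without replicate 1, so its place as the steepest rested on replicate 2. Its Beach treatment mean of 0.268 CPM was also below the offset of 0.5 CPM, which lowers the Beach fold. The fitted difference in response, Beach minus Inland, was -1.295, a larger fall in Beach. Its interval was the widest of all members tested, ± 3.07.

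Phvul.009G034300, steepest in Inland, had 1.66, 1.58 and 1.59 CPM in Beach treatment, against 38.2, 24.5 and 24.9 CPM in Beach control. The Inland libraries had 1.57, 1.53 and 1.31 CPM in treatment, against 27.9, 35.6 and 40.0 CPM in control. Control and treated libraries were far apart in both genotypes, and the treated libraries of both genotypes lay at similar levels, from 1.31 to 1.66 CPM. Its folds were 14.1 in Beach and 17.8 in Inland, with fitted log2 changes of -4.16 (standard error 0.21) and -4.63 (standard error 0.19).

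**Figure D5:**
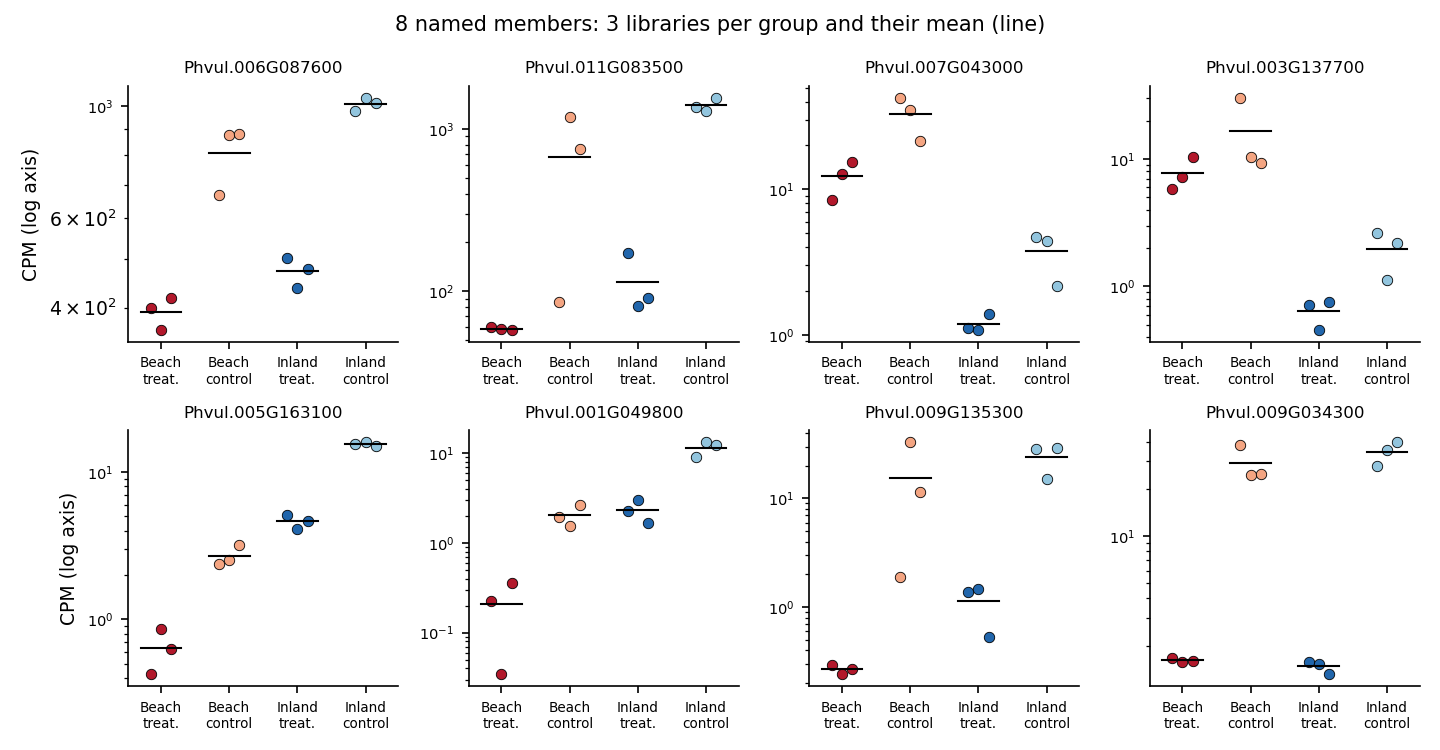
CPM on a log axis for the 8 named members, with 3 libraries per group as points and their mean as a line. Phvul.009G034300 shows a fall of 14.1-fold in Beach and 17.8-fold in Inland, Phvul.011G083500 and Phvul.009G135300 show a Beach control library far below its partners, and in Phvul.007G043000 treated Beach lies above Inland control while in Phvul.005G163100 Beach control lies below treated Inland.

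Over the 257 members the Spearman correlation of mean CPM with the Inland fold was -0.05, across genes that share the same libraries. The rule limited both level and fold, and its offset lowers folds at low levels. This value and the median folds by level are therefore a description, from which no relation can be read. The 42 members under 5 CPM had median folds of 2.92 in Beach and 2.68 in Inland, and the 39 members of at least 100 CPM had 2.82 and 2.80. Precision varied with both the level and the fold. The median reach of the interval for the difference in response was ± 0.98 for members under 5 CPM that passed the filter, ± 0.82 from 5 to 20 CPM, ± 0.66 from 20 to 100 CPM and ± 0.63 above. By the smaller of the 2 folds it was ± 0.64 under 2.5, ± 0.73 from 2.5 to 3, ± 0.88 from 3 to 4 and ± 1.07 from 4 upward. In that last class 5 of 28 members had an interval within 2-fold. The lower Beach level in control was present in all 4 classes, with medians from -0.36 to -0.32 (-0.31 to -0.18 without Beach control replicate 1). Among the 28 members whose folds were both at least 4, 24 were lower in Beach control, with a median of -0.53 (23 and -0.42 without that library). Among the 119 members whose smaller fold was under 2.5, 91 were lower, with a median of -0.33 (87 and -0.22 without it).

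The digits after the prefix of an identifier give the common bean chromosome, and the following number runs along it. Members came from all 11 chromosomes, from 0.614% of the counted genes on chromosome 8 (18 members) to 1.34% on chromosome 5 (25 members). Some were next to each other in the numbering of the table. The next or previous row held another member for 22 of the 257 members (8.56%), as 11 separate pairs, while 1.87% of all 27191 genes had a member in such a row. Within 5 rows the shares were 21.4% of members and 8.66% of all genes. In a pair on chromosome 7, chosen as an example after the values were seen, the first gene had mean levels of 17.1 CPM in Beach treatment against 82.9 CPM in Beach control, and 15.9 CPM in Inland treatment against 85.3 CPM in Inland control. The second had 1.89 CPM against 13.2 CPM in Beach and 3.12 CPM against 13.4 CPM in Inland, so both fell steeply from controls that were alike in the genotypes. Whether neighbours are copies of one gene that share reads was not tested.

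The level of the genotypes in water can be set beside that of the nearest sets of genes. The 96 genes that fell over 1.5 times more in Beach had a median log2 ratio of Beach control over Inland control of -0.05, with 54 of them (56.2%) lower in Beach, against -0.35 and 75.9% for the members. In treatment their median was -1.16, against -0.43 for the members. The ratio of the 2 folds is the control ratio divided by the treated ratio. Sorting the repressed genes by their folds therefore bears on the gaps in control as well as in treatment. The 25 genes that fell over 1.5 times more in Inland had a control median of -0.74, further below 0 than that of the members, with 19 (76.0%) lower in Beach. The 289 genes induced at least 2-fold in both genotypes with folds within 1.5 times of each other had a control median of 0.27, with 83 (28.7%) lower in Beach. Without Beach control replicate 1 the control medians were -0.24 for the members, -0.096 for the 96 genes, -0.48 for the 25 genes and 0.23 for the 289 genes. Median levels over the 12 libraries were 19.5 CPM for the members, 22.4 CPM for the 96 genes, 6.15 CPM for the 25 genes and 19.9 CPM for the 289 induced genes. These are values side by side, and the differences between the sets were not tested.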

How the data were processed

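Root RNA of 12 pools of plants was sequenced as single reads. The authors trimmed reads with Trimmomatic 0.36, aligned them with STAR to the common bean genome Pvulgaris_218_v1.0 and counted uniquely aligned reads over exons with featureCounts. Versions of STAR and featureCounts are not given in the sources used here. The code names no strand option, so a gene and its antisense partner cannot be told apart. The authors deposited whole-number counts per gene without normalization. All 12 columns were used.

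The tests ran in R 4.3.3 (edgeR 4.0.16, with limma 3.58.1 beneath it; DESeq2 1.42.0 as the alternative), and tables and plots were made with pandas 2.3.3, numpy 2.4.6 and matplotlib 3.10.9 in Python 3.11.15. A gene entered a fit when 3 or more libraries exceeded 5 CPM, among 6 libraries for a single genotype and 12 otherwise. Library totals were scaled by TMM. Groups were compared across all genes by quasi-likelihood F-tests in edgeR, adjusted after Benjamini and Hochberg. Standard errors and 95% intervals were derived from its F statistic. The fits were checked on simulated data. Between replicates the chi-square statistic was 14.2 to 74.9 times its degrees of freedom, and no library duplicated another. Libraries of the same group are biological replicates per the labels.

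Members, comparisons and lists were chosen with earlier results of these data known. Lists by product and marker genes were planned but not used here, since identifiers could not be matched to products. Named members were the 2 with the highest mean CPM, and, among those past both limits between the control groups with at least 10 counts in each control library and no overlap, the 2 furthest in each direction. Exceptions are stated. Alternatives covered test, scaling, filter, offset, limits, replicate block and each library left out. Values of the member list without Beach control replicate 1, and alternatives for the difference in response and Beach fold of single members, were added after the data were seen.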

Additional observations from a re-analysis of the deposited data

Results flagged for a closer look

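A pair of members passed edgeR's test of the difference between the genotypes' salt responses at fdr ≤ 0.05 without a minimum on fold change, although the rule chose them for similar folds. Phvul.011G059200 fell by less in Beach than in Inland, 2.03-fold against 2.80-fold, with a difference of 0.57 on the log2 scale (standard error 0.13, edgeR fdr = 0.0203). It had 151, 146 and 177 CPM in Beach treatment, against 288, 337 and 337 CPM in Beach control. Its Inland levels were 176, 153 and 162 CPM in treatment, against 448, 460 and 470 CPM in control. The treated groups overlapped and the control groups did not. With each library left out in turn the edgeR fdr ranged from 0.0230 to 0.0524, and the difference from 0.49 to 0.62. The fdr was at most 0.05 in 11 of the 12 cases. With another scaling or filter or the replicate block it lay between 0.0197 and 0.0389, and the adjusted p by DESeq2 was 0.000767.

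Phvul.002G040100 was 2.25-fold lower in Beach and 3.30-fold lower in Inland, a difference of 0.66 (standard error 0.19, edgeR fdr = 0.0465). It had 113, 104 and 134 CPM in Beach treatment, against 251, 273 and 269 CPM in Beach control. In Inland it had 114, 114 and 105 CPM in treatment, against 294, 380 and 428 CPM in control. The fdr ranged from 0.00755 to 0.105 with each library left out, and was at most 0.05 in 1 of the 12 cases. It was 0.0543 with the replicate block and 0.0635 with library totals in place of TMM. With DESeq2 size factors it was 0.0450, and with the lower filters 0.0411 and 0.0444. The adjusted p by DESeq2 was 0.0103.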

How the results depend on the processing

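Between 224 and 277 genes met the rule with a library left out, of which at least 202 were among the 257, and 246 to 272 met it with another scaling, offset or average. With folds of at least 3 the number was 78. Without a minimum on fold change, members passing edgeR's test became 89 between the control groups, 99 between the treated groups and 2 for the difference in response. With both limits the counts were 51, 54 and 0, and with each library left out those ranged from 39 to 61, 46 to 55 and 0 to 1, and the members lower with salt from 172 to 198 in Beach and 214 to 225 in Inland. Without Inland control replicate 2, 35 members were lower in Beach control. The median log2 ratio of Beach over Inland ranged from -0.52 to -0.32 in control and from -0.51 to -0.37 in treatment. With library totals in place of TMM the median difference in response over all genes moved to -0.12 and over the members to -0.09. In that run 36 members were lower and 7 higher in Beach control, with median log2 ratios of -0.35 over the members and 0.07 over all genes tested. Shares of all genes passing were computed only for the main fit, so counts from the other runs have no share beside them. Same-numbered libraries of different groups had correlations of -0.162 to 0.118 over 18 pairs, 3 of them above 0.1, so the numbers were not taken as pairs. With the replicate block 49 members passed between the control groups, 51 between the treated groups, 0 for the difference in response, 198 in Beach and 222 in Inland. Phvul.006G087600 was just under the 2-fold limit in Beach with lower filters (-0.99 and -0.998), and likewise without Beach control replicate 2 or 3 or Beach treatment replicate 2. By DESeq2 the Beach response of Phvul.003G137700 passed (adjusted p = 0.036). The fitted difference in response of Phvul.011G083500 changed sign, to -0.32, without Beach control replicate 1, and ranged up to 0.89 with other libraries left out. No alternative run changed the sign of another fitted value of the 8 named members, of which 3 were not fitted in Beach alone and 2 not in Inland alone. Depth limits the low members, as 8 had under 10 counts in some library.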
